A study of Mus musculus with 2 samples.

Results

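The carriers described here are 42 mouse genes of the amino acid transporter families *Slc1a*, *Slc3a*, *Slc7a*, *Slc36a*, *Slc38a* and *Slc43a*. Within these families, membership was set by symbol alone. It took in every gene whose symbol is a family name followed by a number, with *Slc3a1* and *Slc3a2* as the members of *Slc3a*. Of 20282 genes with a probe on the array, these are 42, and all 42 named by RefSeq had a probe. A total of 30 carriers were measured, meaning that at least 1 probe was well above background on at least 1 array, out of 13846 genes measured.

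Left ventricular RNA was compared between control mice and heart-specific *Bmal1* knockout mice, called *H-Bmal1*-/-. The knockout mice carried a floxed *Bmal1* gene and a *Cre* transgene under the αMHC promoter, which is active in heart muscle cells, so that other cell types of the ventricle keep the gene. The control mice were littermates that carried the floxed *Bmal1* gene without *Cre*, although the labels call their genotype wildtype, and no group with *Cre* alone was compared. All animals were males aged 12 weeks, and tissue was taken at ZT 2, where ZT 0 is lights on. The RNA of 6 animals per genotype was pooled and hybridized to 1 Agilent array in 1 color (Cy3), with both arrays on the same slide. There was thus 1 sample per genotype, no replicate error and no test of any difference between the genotypes.

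Amino acid carriers of the solute carrier families move amino acids across the plasma membrane and the lysosomal membrane. *Slc1a* members couple the uptake of glutamate or small neutral amino acids to sodium, whereas *Slc7a* holds the carriers of cationic amino acids and the light chains of exchangers, which work bound to a heavy chain from *Slc3a*. *Slc38a* carriers take up glutamine and other neutral amino acids with sodium, *Slc36a* carriers use the proton gradient, and *Slc43a* carriers let large neutral amino acids pass by facilitated diffusion. In heart muscle, imported glutamate and glutamine feed the tricarboxylic acid cycle and the malate-aspartate shuttle, imported arginine is the substrate of nitric oxide synthase, and leucine and arginine act on the growth kinase complex mTORC1. BMAL1 binds DNA with CLOCK at E-boxes.

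Most carriers differed little between the pools. The log2 ratio of a gene is its level in the *H-Bmal1*-/- pool minus its level in the control pool, where a level is the log2 processed signal minus the 75th percentile of its array, averaged over the gene's measured probes. By the size rule of a 1.5-fold difference, 5 of the 30 measured carriers were counted as higher and 3 as lower in the *H-Bmal1*-/- pool. The other 22 were not counted past the line. Among these, *Slc7a15* was measured past the line but was well above background in 1 pool only, as given below. The higher ones were the glutamate carriers *Slc1a1*, *Slc1a2* and *Slc1a3*, the glutamine carrier *Slc38a1* and the leucine carrier *Slc43a2*. The lower ones were the glutamine carrier *Slc38a3*, the arginine carrier *Slc7a1* and the glutamate carrier *Slc1a7*. The 1.5-fold line was passed upward by 6.15% and downward by 5.85% of all 13846 genes measured, against 5 of 30 (16.7%) and 3 of 30 carriers. Among genes well above background in both pools, 3 of 26 carriers were higher and 2 were lower past the line, against 666 and 588 of 13050 genes. With so few carriers these shares are descriptions of 2 pools.

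A log2 ratio above 0 was found for 11 of the 30 carriers and for 48.4% of all genes. The median log2 ratio was -0.04 for the carriers and -0.01 for all genes, and the median size of the ratio regardless of sign was 0.16 for the carriers against 0.19 for all genes. Without scaling between the arrays, all ratios moved up by 0.15, the median of all genes became 0.14, and 23 carriers were above 0. The sign of a small ratio therefore depended on the scaling. Processed signals printed below are unscaled, whereas ratios and folds are scaled, so a pair of signals can differ from its ratio in size or direction.

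**Figure D1:**
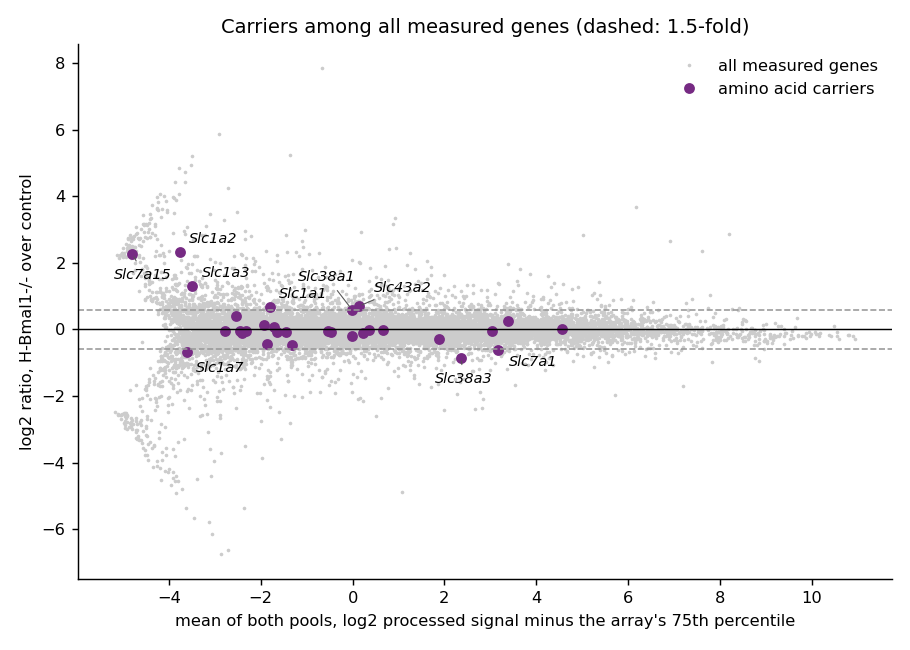
Log2 ratio (*H-Bmal1*-/- over control) on the y axis against the mean level of both pools on the x axis (log2 processed signal minus the array's 75th percentile), with 1 point per measured gene (13846 genes in gray, 30 carriers in purple) and dashed lines at 1.5-fold. Most carriers lie within the lines, *Slc38a3* and *Slc7a1* lie below them at high signal, and *Slc1a2*, *Slc1a3* and *Slc7a15* lie above them at the dim end, where all genes spread widely.

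The precision known from the arrays is technical only. The scanner software gives an error with each processed signal, and for the 26 carriers well above background in both pools the resulting error of the log2 ratio was 0.15 to 0.30. The ratio was larger than its own error for 11 of these 26 carriers and larger than 2 errors for 6, which were *Slc38a3*, *Slc7a1*, *Slc38a5*, *Slc38a1*, *Slc1a1* and *Slc43a2*. Of these 26, only *Slc38a3* lay beyond the 1.5-fold line by more than its scanner error. For *Slc1a1* and *Slc7a8*, with 9 spots each, the error is the median over spots and was not reduced for their number. Errors of several probes of a gene were combined as for a mean. For the carriers well above background in 1 pool only, the error was 0.42 (*Slc1a7*), 0.43 (*Slc1a3*), 0.75 (*Slc1a2*) and 1.48 (*Slc7a15*). On the arrays as a whole, the median SD of the log2 ratio between spots was 0.07 over 250 probes printed at least 8 times. A total of 49.4% of spots in the control pool and 50.03% in the *H-Bmal1*-/- pool were well above background. These errors do not include the spread between animals.

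The tissue and the genotype were checked against their own genes. The only measured probe of *Bmal1* (listed as *Arntl*) had a level of 1.58 in the control pool and 0.79 in the *H-Bmal1*-/- pool, a log2 ratio of -0.80. Whether this probe lies within the floxed exon was not known. All 8 cardiomyocyte markers were well above background in both pools. Apart from *Nppa* at 2.87, their log2 ratios ran from -0.42 (*Tnni3*) to -0.08 (*Tnnt2*, cardiac troponin T).

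The promoters of the carriers are shown because the deleted factor binds a known motif, the E-box, and because several carriers are known targets of ATF4, which binds an amino acid response element. RefSeq promoter sequences (GRCm38.p6, 250 bases before to 50 bases after the start) were given for 31 of the 42 carriers. The other 11 were not searched for either motif. They were *Slc1a5*, *Slc36a2*, *Slc38a1*, *Slc38a3*, *Slc43a3*, *Slc7a2*, *Slc7a3*, *Slc7a4*, *Slc7a5*, *Slc7a12* and *Slc7a13*. The E-box CACGTG, which reads the same on both strands, was in 7 of these 31 carriers, against 7.15% of all promoters and 8.09% of all genes with a promoter. The 5 measured ones are printed from 5′ to 3′ on the strand of the gene with the E-box in capitals, at chr2:84840229-84840294 (plus strand) for *Slc43a1*, chr4:107968316-107968381 (plus) for *Slc1a7*, chr8:95853492-95853555 (minus) for *Slc38a7*, chr11:55204279-55204342 (plus) for *Slc36a1* and chrX:8271321-8271380 (plus) for *Slc38a5*.
Slc43a1: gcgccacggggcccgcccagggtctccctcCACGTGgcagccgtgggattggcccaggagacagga
Slc1a7: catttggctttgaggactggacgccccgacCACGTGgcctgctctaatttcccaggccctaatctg
Slc38a7: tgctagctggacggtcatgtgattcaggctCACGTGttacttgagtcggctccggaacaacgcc
Slc36a1: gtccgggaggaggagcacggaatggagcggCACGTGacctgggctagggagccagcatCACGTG
Slc38a5: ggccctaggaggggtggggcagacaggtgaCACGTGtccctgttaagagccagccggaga
The E-box of these 5 began between 64 bases (*Slc43a1*) and 30 bases (*Slc38a5*) before the start, and *Slc36a1* held a second one 3 bases before the start.

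The log2 ratios of these 5 carriers with an E-box were -0.43, -0.67, -0.21, -0.04 and -0.46 in the order printed. As reported all 5 were below 0, but *Slc1a7* was not well above background in the *H-Bmal1*-/- pool, and *Slc36a1* turned above 0 in 5 of 13 alternatives, at up to 0.37 with its brightest probe. Among all measured genes with a promoter entry, 49.96% of the 1241 with an E-box had a ratio below 0, with a median of 0.00, against 51.9% of the 9773 without one, with a median of -0.02. The match is a description of letters in a window, and *Slc1a6* and *Slc7a14*, which also held the motif, were not measured.

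The core of the amino acid response element was searched as TTGCATCA on either strand, that is TTGCATCA or TGATGCAA. It was in 3 of the 31 carriers, against 0.895% of all promoters and 1.03% of all genes with a promoter, and these 3 are printed with the core in capitals, at chr3:50443623-50443709 for *Slc7a11*, chr11:20332710-20332747 for *Slc1a4* and chr14:54417938-54417975 for *Slc7a7*, all on the minus strand.
Slc7a11: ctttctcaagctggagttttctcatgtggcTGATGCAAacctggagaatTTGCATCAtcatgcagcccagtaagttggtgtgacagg
Slc1a4: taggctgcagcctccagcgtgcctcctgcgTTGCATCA
Slc7a7: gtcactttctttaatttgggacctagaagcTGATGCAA
The promoter of *Slc7a11* held the core on both strands, 66 and 47 bases before the start. *Slc7a11* encodes xCT, the cystine and glutamate exchanger, and was not measured here, as given below. *Slc1a4* and *Slc7a7* were measured, with log2 ratios of -0.11 and -0.02.

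**Figure D2:**
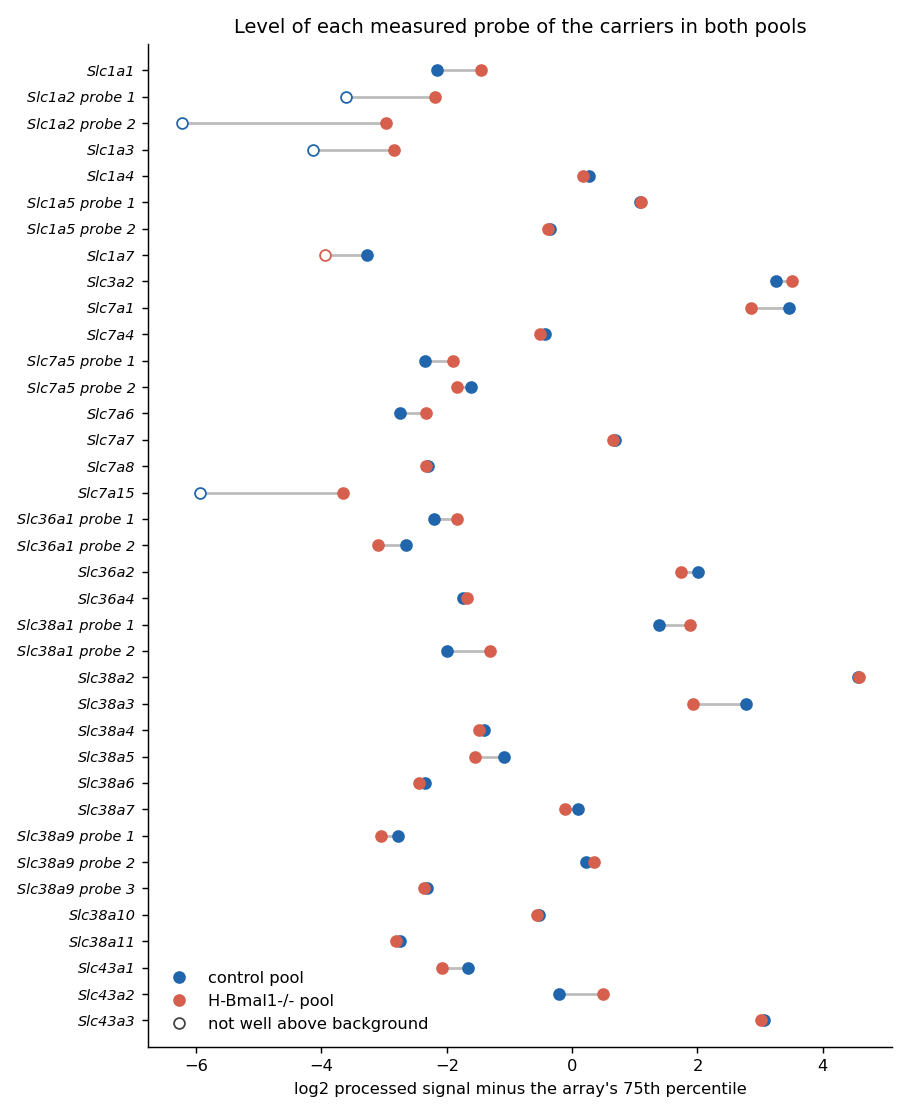
Level of each of the 37 measured probes of the carriers in the control pool (blue) and the *H-Bmal1*-/- pool (red) on the x axis (log2 processed signal minus the array's 75th percentile), with 1 row per probe and open circles where the probe was not well above background. Levels may be compared between the pools within a row but not between rows, because probes differ in how brightly they hybridize, and the widest gaps are those of the dim *Slc1a2* and *Slc7a15* probes.

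The 5 glutamate carriers of *Slc1a* take up glutamate and aspartate with sodium. *Slc1a1*, which encodes the glutamate carrier EAAT3, also a carrier of cysteine, had a processed signal of 39.0 in the control pool and 69.2 in the *H-Bmal1*-/- pool, each the mean of 9 spots of the same probe. It was 1.61-fold higher in the *H-Bmal1*-/- pool (log2 ratio 0.69), and the ratio at its spots ran from 0.40 to 1.11 with an SD of 0.24 between spots. All 9 spots thus gave a higher signal in the *H-Bmal1*-/- pool. Spots with an outlier flag are not among them, and with such spots kept the log2 ratio was 0.63.

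*Slc1a2* and *Slc1a3*, which encode GLT-1 and GLAST, the main glutamate carriers of glial cells, were well above background in the *H-Bmal1*-/- pool only. For such a gene the ratio is given as a bound, in which the signal of the dim pool is replaced by the dimmest signal that its array called well above background, where that is higher. *Slc1a3* had a processed signal of 9.72 in the control pool and 26.6 in the *H-Bmal1*-/- pool, which made it at least 2.17-fold higher. *Slc1a2* had signals of 14.01 and 41.5 at 1 probe and of 2.29 and 24.3 at another, and was at least 2.30-fold higher. The remaining probe of *Slc1a2* was not well above background in either pool, with signals of 2.43 and 2.40. After normexp, another background correction, the log2 ratios were 0.33 for *Slc1a2* and 0.17 for *Slc1a3*, and that of *Slc1a1* was 0.28, all still above 0 but within the 1.5-fold line. Normexp was run with an offset of 50 added to every intensity, which draws the ratios of dim probes toward 0.

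*Slc1a7*, which encodes the glutamate carrier EAAT5, had the opposite difference at a signal near background. Its processed signal was 17.7 in the control pool and 12.3 in the *H-Bmal1*-/- pool, where it was not well above background. The latter signal was above the dimmest one called on that array, so its bound equals its measured ratio. *Slc1a7* was 1.59-fold lower as measured, with a scanner error of 0.42. Its log2 ratio of -0.67 became -0.24 after normexp. *Slc1a6*, which encodes EAAT4, was not well above background in either pool. The 4 measured glutamate carriers thus lay past the 1.5-fold line, but none did after normexp, and *Slc1a7* did not without scaling (-0.52). Of these 4, 3 were well above background in 1 pool only, and so were 796 of all measured genes, of which 186 of the 472 seen in the *H-Bmal1*-/- pool only and 222 of the 324 seen in the control pool only passed the line.

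The neutral amino acid carriers of *Slc1a* differed little between the pools. *Slc1a4*, which encodes ASCT1, a carrier of alanine, serine and cysteine, had signals of 206.9 and 213.3 in the control and *H-Bmal1*-/- pools, a log2 ratio of -0.11. *Slc1a5*, which encodes ASCT2, an exchanger of glutamine, had signals of 363.8 and 405.0 at 1 probe and of 133.9 and 145.6 at another. Both of its probes lay close to 0, with a mean log2 ratio of -0.01.

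Cationic amino acids, arginine among them, enter cells mainly through the CAT carriers of *Slc7a*. *Slc7a1*, which encodes CAT1, had a processed signal of 1887 in the control pool and 1376 in the *H-Bmal1*-/- pool. It was 1.52-fold lower in the *H-Bmal1*-/- pool, with a log2 ratio of -0.61 and a scanner error of 0.20. The ratio lay just past the 1.5-fold line and went to -0.46 without scaling and -0.51 after normexp, both within the line. *Slc7a2* and *Slc7a3*, which encode CAT2 and CAT3, and their relative *Slc7a14* were not well above background in either pool. *Slc7a4*, a relative of the CAT carriers, had signals of 126.5 and 132.9 and a log2 ratio of -0.08.

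The heavy chain *Slc3a2*, which encodes 4F2hc (CD98) and brings its light chains to the cell surface, had a processed signal of 1627 in the control pool and 2158 in the *H-Bmal1*-/- pool. It was 1.19-fold higher (log2 ratio 0.26, scanner error 0.20), below the 1.5-fold line. *Slc3a1*, the heavy chain rBAT of kidney and gut, was not well above background in either pool, and neither was its light chain *Slc7a9*.

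Of the 6 light chains that pair with 4F2hc, 4 were measured and none reached a 1.5-fold difference. *Slc7a5*, which encodes LAT1, a carrier of leucine and other large neutral amino acids, had 2 probes that lay on both sides of 0. Their signals in the control and *H-Bmal1*-/- pools were 33.5 and 51.1 for 1 probe and 55.7 and 53.3 for the other, with log2 ratios of 0.46 and -0.21. The probes disagreed by more than their scanner errors, and their mean of 0.12 describes neither.

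*Slc7a6*, which encodes y+LAT2, an exchanger of arginine for neutral amino acids, had signals of 25.5 and 37.8 and a log2 ratio of 0.41. Of the carriers well above background in both pools it was the highest inside the 1.5-fold line, at 1.33-fold, and it went to 0.04 after normexp. *Slc7a7*, which encodes the related y+LAT1, had signals of 273.5 and 300.1 and a log2 ratio of -0.02. *Slc7a8*, which encodes LAT2, had signals of 34.8 and 37.8 as the mean of 9 spots, with ratios from -0.29 to 0.22 and a mean of -0.03, and its spots lay on both sides of 0. The remaining partners of 4F2hc, *Slc7a10* (Asc-1, an exchanger of small neutral amino acids) and *Slc7a11* (xCT), were not well above background in either pool.

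*Slc7a15*, a further member of the *Slc7a* family, had the second highest measured log2 ratio of the carriers, 2.28, but at signals of 2.80 and 15.1. It was well above background in the *H-Bmal1*-/- pool only and its bound was at least 1.23-fold, so it was not counted as 1.5-fold higher. Its other probe was not well above background in either pool. The light chains *Slc7a12* and *Slc7a13* were also not well above background in either pool, so that 8 of the 15 *Slc7a* members gave no ratio.

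**Figure D3:**
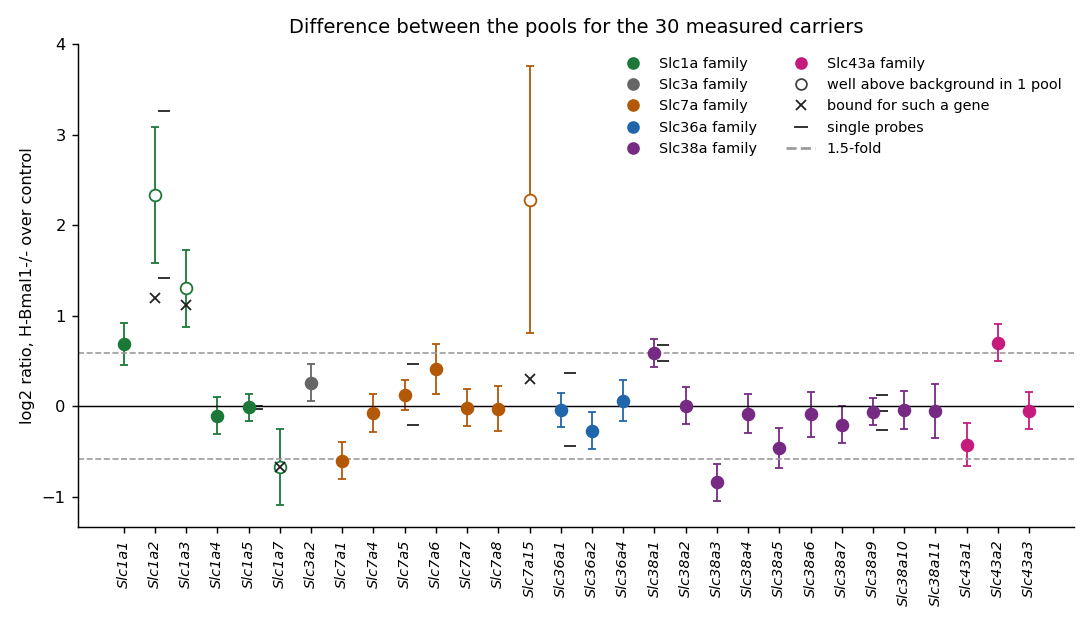
Log2 ratio (*H-Bmal1*-/- over control, y axis) of the 30 measured carriers (x axis), colored by family, with bars for the scanner software's error of the ratio, short dashes for single probes where a carrier had more than 1, open circles for carriers well above background in 1 pool only and crosses for their bounds. *Slc38a3* is the lowest at -0.84, *Slc1a2* the highest at 2.34 with its bound far lower, and the probes of *Slc7a5* and *Slc36a1* straddle 0.

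Among the *Slc38a* carriers, the 2 of system N were both lower in the *H-Bmal1*-/- pool in value. System N carriers move glutamine, histidine and asparagine with sodium in exchange for protons, in either direction. *Slc38a3*, which encodes SNAT3, had a processed signal of 1171 in the control pool and 726 in the *H-Bmal1*-/- pool, 1.79-fold lower with a log2 ratio of -0.84 and a scanner error of 0.20. It had the lowest ratio of all carriers, 512 of the 13846 measured genes had a lower one, and it stayed past the 1.5-fold line in every alternative way of processing run, between -0.85 and -0.69. *Slc38a5*, which encodes SNAT5, had signals of 80.3 and 64.7 and a log2 ratio of -0.46, the lowest inside the line at 1.38-fold.

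System A carriers take up alanine, glutamine and other small neutral amino acids with sodium. *Slc38a1*, which encodes SNAT1, had signals of 447.3 and 702.5 at 1 probe and of 43.1 and 76.3 at another, both higher in the *H-Bmal1*-/- pool, with log2 ratios of 0.50 and 0.67. Their mean of 0.59 lay just past the 1.5-fold line, at 1.502-fold, and it fell inside the line with the brighter probe alone, with median scaling (0.58), after normexp (0.37) and with no filter on dim probes (0.33). Its remaining probe was not well above background in either pool.

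*Slc38a2*, which encodes SNAT2, the system A carrier known to be induced by amino acid starvation, had a processed signal of 4051 in the control pool and 4518 in the *H-Bmal1*-/- pool. Its log2 ratio was 0.01, so the pools did not differ beyond the scanner error of 0.20. *Slc38a4*, which encodes SNAT4, had signals of 64.7 and 67.8 and a log2 ratio of -0.09.

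The lysosomal *Slc38a* carriers stayed within the line. *Slc38a7*, which encodes SNAT7, the exporter of glutamine from the lysosome, had signals of 182.2 and 175.3 and a log2 ratio of -0.21. *Slc38a9*, the arginine sensor of mTORC1 on the lysosomal membrane, had 3 probes with log2 ratios of -0.27, -0.05 and 0.13 and a mean of -0.06, and its brightest probe, at 199.6 and 242.0, was the one above 0.

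*Slc38a6*, *Slc38a10* and *Slc38a11*, whose substrates are less well known, had log2 ratios of -0.09, -0.04 and -0.05. Their signals in the control and *H-Bmal1*-/- pools were 33.5 and 34.9 for *Slc38a6*, 119.0 and 128.5 for *Slc38a10*, and 25.4 and 27.2 for *Slc38a11*. *Slc38a8* was not well above background in either pool. Of the 10 measured *Slc38a* carriers, 8 had a ratio below 0, which fell to 3 without scaling.

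The proton-coupled carriers of *Slc36a* did not reach the 1.5-fold line either. *Slc36a1*, which encodes PAT1, an exporter of small amino acids from lysosomes, had 2 probes on both sides of 0, with signals of 37.1 and 53.1 for 1 probe and 27.4 and 22.3 for the other, and log2 ratios of 0.37 and -0.45. *Slc36a2*, which encodes PAT2, a carrier of glycine and proline, had signals of 690.5 and 634.8 and a log2 ratio of -0.27. *Slc36a4*, which encodes PAT4, had signals of 51.2 and 59.3 and a log2 ratio of 0.06 at its measured probe, while *Slc36a3* was not well above background in either pool.

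The *Slc43a* carriers of large neutral amino acids went in opposite directions in value. *Slc43a2*, which encodes LAT4, had a processed signal of 147.8 in the control pool and 267.0 in the *H-Bmal1*-/- pool, 1.63-fold higher with a log2 ratio of 0.70 and a scanner error of 0.21. *Slc43a1*, which encodes the related LAT3, had signals of 54.3 and 44.9 and a log2 ratio of -0.43, at 1.34-fold lower. *Slc43a3*, which is known as a carrier of nucleobases and not of amino acids, had signals of 1436 and 1537 and a log2 ratio of -0.05. After normexp *Slc43a2* stood at 0.57, just inside the 1.5-fold line, and was the highest carrier under that correction.

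**Figure D4:**
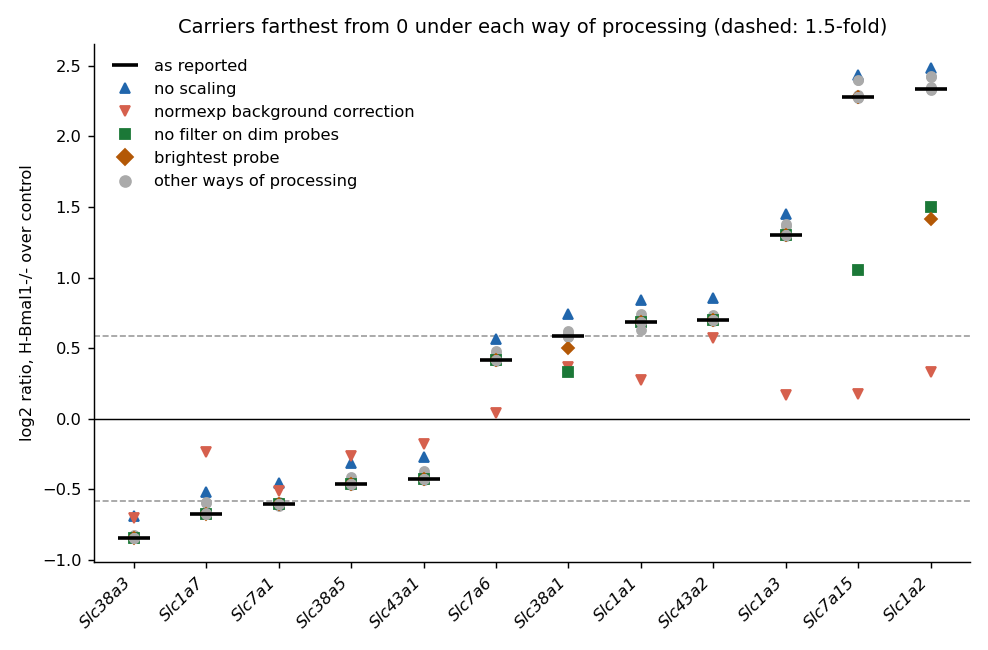
Log2 ratio (*H-Bmal1*-/- over control, y axis) of the 12 carriers farthest from 0 (x axis), as reported (black bar) and under each other way of processing (symbols), with measured ratios shown for carriers well above background in 1 pool only. *Slc38a3* stays below the lower dashed 1.5-fold line throughout, whereas the normexp correction (red triangles) brings *Slc1a2*, *Slc1a3* and *Slc7a15* to between 0.17 and 0.33.

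The genes that use or sense the carried amino acids were described from 6 lists. Each count past the 1.5-fold line as reported has as its background the 6.15% upward and 5.85% downward of all genes. For counts after normexp these shares were 2.67% and 1.79%, and for counts without scaling 9.66% and 3.82%. Of 31 measured genes of amino acid sensing by mTORC1, 1 passed the line upward and 2 downward, and the median log2 ratio was 0.00. None passed it after normexp, and 3 upward and 1 downward did so without scaling. The higher one was *Rheb*, the GTPase that activates mTORC1, with a mean log2 ratio of 0.61 over 3 probes that ran from -0.11 to 1.92. Its call rested on 1 dim probe, since its log2 ratio was 0.02 at the brightest probe and -0.05 over probes well above background on both arrays. The lower ones were *Rragb*, a Rag GTPase, and *Tsc2*, which turns *Rheb* off. Both were well above background in the control pool only. *Rragb* was at least 1.76-fold lower, and *Tsc2* was 1.62-fold lower as measured, since its bound equals its measured ratio.

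Of 14 measured genes of glutamate, glutamine and aspartate metabolism, 2 were at least 1.5-fold higher and 1 was lower, with 9 below 0 and a median log2 ratio of -0.25 (-0.10 without scaling). *Asns*, asparagine synthetase, had levels of 0.70 and 1.57 in the control and *H-Bmal1*-/- pools and was 1.83-fold higher. *Aldh18a1*, which makes proline precursors from glutamate, was 1.53-fold higher. *Gpt2*, the mitochondrial alanine aminotransferase, had levels of 1.47 and 0.80 and was 1.59-fold lower. *Gpt2* fell inside the line without scaling (log2 ratio -0.52) and *Aldh18a1* after normexp (0.32).

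Of 12 measured genes of arginine and nitric oxide metabolism, 1 was at least 1.5-fold higher and none lower, with a median log2 ratio of 0.15 (0.30 without scaling). *Ddah1*, which breaks down methylated arginines that inhibit nitric oxide synthase, had levels of -1.97 and -0.31 in the control and *H-Bmal1*-/- pools and was 3.16-fold higher, with log2 ratios of 1.63 and 1.69 at its 2 probes. After normexp the log2 ratio of *Ddah1* was 0.91, still past the line. *Azin1* stood just inside the line at 1.49-fold. It passed the line without scaling, with spike-in, quantile or cyclic loess scaling and with its brightest probe. *Nos3*, the endothelial nitric oxide synthase, had a log2 ratio of -0.05, beside the -0.61 of the arginine carrier *Slc7a1*.

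Of 13 measured genes of cysteine and glutathione metabolism, 2 passed the 1.5-fold line upward and 2 downward, and the median log2 ratio was 0.13 (0.28 without scaling). *Cdo1*, cysteine dioxygenase, which commits cysteine to taurine and sulfate, was well above background in the *H-Bmal1*-/- pool only and was at least 37.3-fold higher, at levels of -3.97 and 1.27 from 1 probe. *Chac1*, which degrades glutathione and is a known target of ATF4, was 2.44-fold higher. *Oplah*, which returns glutamate from 5-oxoproline, was 2.26-fold lower, and *Cth*, which makes cysteine from cystathionine, was 1.57-fold lower. After normexp the log2 ratio of *Cdo1* was 2.75, and that of *Cth* was inside the line at -0.35, as it was without scaling at -0.50.

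Of the 12 ATF4 branch regulators, all of which were measured, 2 were at least 1.5-fold higher and none lower, with 8 above 0 and a median log2 ratio of 0.24. ATF4 is the transcription factor that turns on carrier and biosynthesis genes when amino acids are short. *Ddit4*, which inhibits mTORC1 under stress, was 2.07-fold higher and *Nupr1*, a stress-induced chromatin protein, was 1.62-fold higher. *Atf4* itself had a log2 ratio of 0.27. Without scaling the median was 0.39 and 4 genes passed the line upward.

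Of 22 measured carriers of amino acids and related amines from other families, 1 passed the 1.5-fold line upward and 3 passed it downward. The median log2 ratio was -0.21 (-0.05 without scaling), and no gene of the list passed the line after normexp. *Slc16a10*, which encodes TAT1, a carrier of aromatic amino acids, was 1.81-fold lower, and *Slc22a5*, the carnitine carrier, was 1.78-fold lower. *Slc32a1*, a vesicular carrier of GABA and glycine, was well above background in the control pool only and 1.92-fold lower as measured. *Slc6a13*, a carrier of GABA and taurine, was well above background in the *H-Bmal1*-/- pool only and 1.70-fold higher as measured. For both genes the bound equals the measured ratio. *Slc15a3* stood just inside the line at 1.49-fold higher, and passed it without scaling and with spike-in, quantile or cyclic loess scaling.

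**Figure D5:**
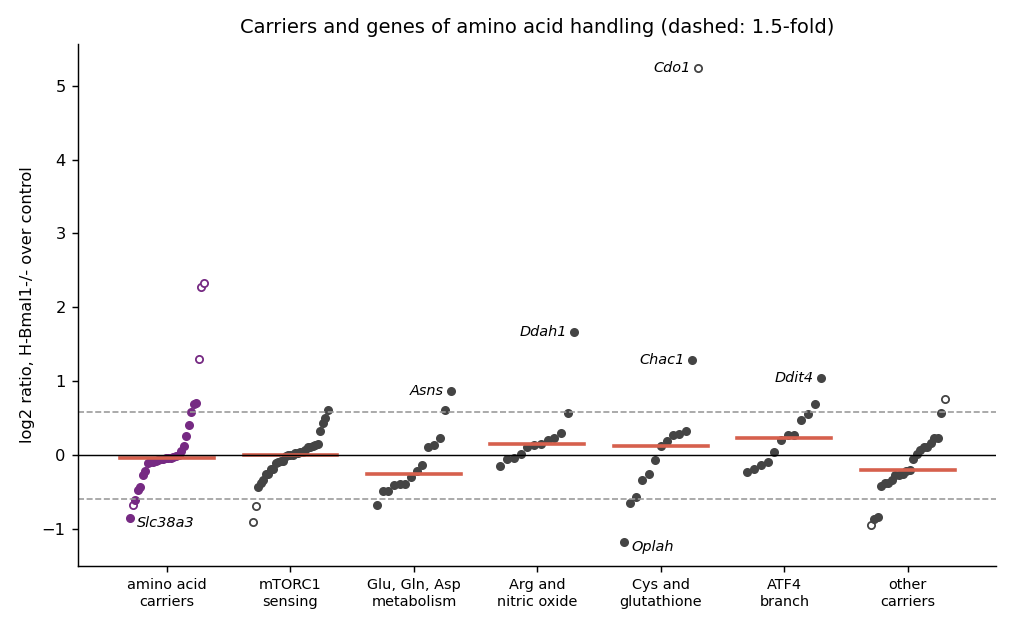
Log2 ratio (*H-Bmal1*-/- over control, y axis) of each measured carrier (purple, 30 genes) and of each measured gene of the 6 lists of amino acid handling (gray, 12 to 31 genes each), sorted within a column, with open circles for genes well above background in 1 pool only, red bars for the medians and dashed lines at 1.5-fold. The medians run from -0.25 for glutamate, glutamine and aspartate metabolism to 0.24 for the ATF4 branch, and *Cdo1* stands apart from all other genes shown.

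Markers of other cell types of the ventricle also differed between the pools, and fewer cells of a type and less RNA per cell cannot be told apart in bulk tissue. All 8 fibroblast markers were higher in the *H-Bmal1*-/- pool in value, 5 of them at least 1.5-fold, and their summed level went from 296.3 in the control pool to 443.5 in the *H-Bmal1*-/- pool, in units of each array's 75th percentile. Of 8 cardiomyocyte markers, 7 were lower in value (median log2 ratio of all 8, -0.26), and *Nppa*, the atrial natriuretic peptide, was 7.31-fold higher. Endothelial markers had a median of -0.06 and macrophage markers of 0.06, and none of either list reached 1.5-fold.

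Of the 5 measured Schwann cell and neuron markers, 4 were below 0, while the neuronal tubulin *Tubb3* was 2.09-fold higher. Their summed level was 54.4 in the control pool and 50.4 in the *H-Bmal1*-/- pool, beside the higher values of the glial carriers *Slc1a2* and *Slc1a3* in the latter. The part of any of these cell types in the carrier differences was not tested.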

How the data were processed

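Left ventricular RNA of 6 control and 6 *H-Bmal1*-/- mice was pooled by genotype and measured on 2 Agilent SurePrint G3 Mouse arrays in 1 color, 1 per genotype. The authors deposited the scanner output, in which the processed signal is a background-subtracted intensity from Feature Extraction (version 10.5.1.1 per the submitters' processing notes and 10.10.1.1 per the file headers), and a value table, which was the same intensity times 1 factor per array (SD of the log2 factor at most 0.00021). The scanner output also holds the median intensity of each spot and of its local background, used for normexp.

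For each array, log2 processed signal minus its 75th percentile over 59305 noncontrol spots was taken, 269 spots with an outlier flag were left out, and spots of a probe were averaged. Probes were named by accession through RefSeq (26759 of 55676 probes had a symbol). Probes that either array called well above background were averaged per gene, and a gene with such a call on 1 array only was counted by its bound. With 1 array per genotype no test was possible, and the number of arrays limits the precision. Genes were counted by a size of 1.5-fold, beside the same count over all 13846 measured genes.

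The carrier families and the lists were chosen with earlier results of these data known. Every carrier is named, and of each list of amino acid handling every gene past 1.5-fold. *Nos3*, *Atf4*, *Azin1*, *Slc15a3* and the markers named were chosen after their values were seen. Marker lists for smooth muscle and pericytes, T cells, B cells, neutrophils and mast cells, red blood cells, adipocytes and lung or mesothelium were also run and had median log2 ratios of -0.18, -0.19, -0.08, -0.27, 0.14, -0.11 and -0.60. The steps were tested on simulated data. Alternatives were quantile, cyclic loess, spike-in and median scaling, no scaling, normexp (limma 3.58.1 in R 4.3.3, offset 50), other filters and probe rules, and lines at 1.3-fold and 2-fold. Python 3.11.15 with numpy 2.4.6 and pandas 2.3.3 was used. Probe and protein sequences were not used here.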

Additional observations from a re-analysis of the deposited data

How the results depend on the processing

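No paired analysis was possible because each genotype had 1 pooled sample. The count of carriers at least 1.5-fold higher, 5 of 30 as reported, was 0 after normexp and 2 at a line of 2-fold. It was 3 of 26 with probes well above background on both arrays only. With no filter on dim probes it was 3 of 42. The count at least 1.5-fold lower, 3 as reported, was 1 without scaling, 1 after normexp, 5 at a line of 1.3-fold and 0 at 2-fold. Over all 13846 genes the counts higher and lower were 369 and 248 after normexp and 1337 and 529 without scaling. They were 1593 and 1642 at 1.3-fold and 334 and 285 at 2-fold. With probes well above background on both arrays only, they were 618 and 557 of 13044 genes. With no filter on dim probes, they were 840 and 788 of 20282 genes. Without scaling the median log2 ratio of the carriers was 0.11 and 23 of them were above 0. Under the other alternatives run, the counts stayed within 1.5 times those reported. Of the 30 carriers, 15 kept the sign of their ratio in every alternative and 15 turned in at least 1, most often without scaling. Signal over background limits *Slc1a2*, *Slc1a3*, *Slc1a7* and *Slc7a15*, which were well above background in 1 pool only. Normexp added an offset of 50 to every intensity before the log, which draws ratios at dim signals toward 0. How much of the lower values after normexp came from this offset was not tested.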
